A study of Homo sapiens with 16 samples.

Results

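The comparison described here sets 3 PMA-treated libraries of a Jurkat line edited to include exon 9 of HDAC7 (labelled H7iE9, iE9 below, with the genotype HDAC7 E9 knock-in) against 3 PMA-treated libraries of a line edited to lack it (labelled H7dE9, dE9 below, with the genotype HDAC7 E9 knock-out). The members were taken by their labels, and these 6 libraries stand among 16 in the series. All cells are JSL1, which is a Jurkat clone and so an established human leukemic T cell line, and both edited lines were made with CRISPR-Cas9. The 6 libraries come from cells kept for 48 h with the phorbol ester PMA at 20 ng/mL, and 6 further libraries of the same lines were grown without it. Unedited JSL1 cells (WT) gave 2 libraries with PMA and 2 without, and they are used below for orientation. The labels do not say whether either line is a clone or whether the replicates are separate cultures, and the p-values therefore rest on a spread among libraries that may be technical. The comparison asks which genes differ between activated cells that carry the HDAC7 isoform with the exon 9 peptide and activated cells that do not.

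HDAC7 belongs to the class IIa histone deacetylases, binds MEF2 transcription factors and represses their targets. It is abundant in developing T cells, and signals from the T cell receptor or from protein kinase C lead to its phosphorylation, to binding by 14-3-3 proteins and to its export from the nucleus. PMA mimics diacylglycerol, so it switches on protein kinase C, the ERK cascade and NF-kB without the receptor.

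Exon 9 is a coding exon of 111 bases, or 37 codons, on the minus strand of chromosome 12 (hg38, chr12:47795906-47796016), inside a gene that spans 47782722 to 47833132. GENCODE release 29 lists 30 HDAC7 transcripts, of which 5 hold this exon and 5 splice across it. The sequences that separate the isoforms are shown because the edit and the measurement both turn on them. They are read 5′ to 3′ on the HDAC7 strand from 1 transcript of each kind in GENCODE 29, with exon 9 in capitals and 20 bases of each neighbouring exon in lower case.
With exon 9: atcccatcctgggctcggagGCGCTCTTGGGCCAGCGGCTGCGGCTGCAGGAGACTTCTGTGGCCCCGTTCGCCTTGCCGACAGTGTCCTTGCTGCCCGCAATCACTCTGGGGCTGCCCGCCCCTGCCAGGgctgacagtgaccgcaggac
Without exon 9: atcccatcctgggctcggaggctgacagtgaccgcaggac
The exon has a GC content of 70.3%, and skipping it joins the same 2 flanks directly.

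The exon 9 share is the TPM of the 5 transcripts that hold the exon, as a percent of the TPM of the 10 that hold or skip it. All other HDAC7 transcripts are left out of this share. With PMA it was 42.3%, 63.0% and 44.3% in iE9 libraries 1 to 3, against 0%, 0.68% and 0% in dE9 libraries 1 to 3. The groups do not overlap, and the means were 49.9% ± 11.4 in iE9 and 0.23% ± 0.39 in dE9 (SD, n = 3 each). The difference was 49.6 percentage points, with a two-sided exact permutation p of 0.1, the smallest that 3 against 3 libraries can give. PMA-treated WT cells stood at 43.1% and 53.8%, so the libraries labelled iE9 overlapped WT in this measure, and skipping transcripts were still present in them. Skipping transcripts summed to 44.1, 27.8 and 41.4 TPM in iE9 libraries 1 to 3, and to 30.9, 37.3 and 70.3 TPM in dE9. That difference of -8.39 TPM had an exact permutation p of 0.8. A single transcript, the one whose sequence with exon 9 is shown, carried nearly all inclusion, with 32.1, 45.6 and 32.8 TPM in iE9, against 0 TPM in each dE9 library. Salmon splits reads among similar transcripts by estimate, and the error of that split is not part of these values.

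HDAC7 as a gene was also higher in iE9. It had 405, 325 and 322 CPM (counts scaled to library size) in iE9 libraries 1 to 3, against 158, 155 and 251 CPM in dE9 and 244 and 238 CPM in WT. Every iE9 library lay above every dE9 and WT library. The log2 difference, iE9 minus dE9, was 0.90 ± 0.21 (SE), with an adjusted p of 0.0393 by edgeR's quasi-likelihood test. That call was lost without any 1 of iE9 libraries 1, 2 or 3, or without dE9 library 1 or 2, where the adjusted p reached 0.132 and the log2 difference ran from 0.78 to 1.16 over the fits that each leave out 1 library. All HDAC7 transcripts together summed to 210.48, 192.72 and 164.83 TPM in iE9 libraries 1 to 3. In dE9 they summed to 63.25, 68.74 and 131.62 TPM. Most of the TPM in each iE9 library lay in transcripts outside the exon 9 share, retained-intron transcripts among them. Their part in the gene-level difference was not tested. HDAC7 overlaps SLC48A1 and LINC02354 in the annotation, and whether the counting used strand is not given in the sources used here. In bulk libraries, fewer cells that express a gene and less of its RNA per cell cannot be told apart.

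**Figure D1:**
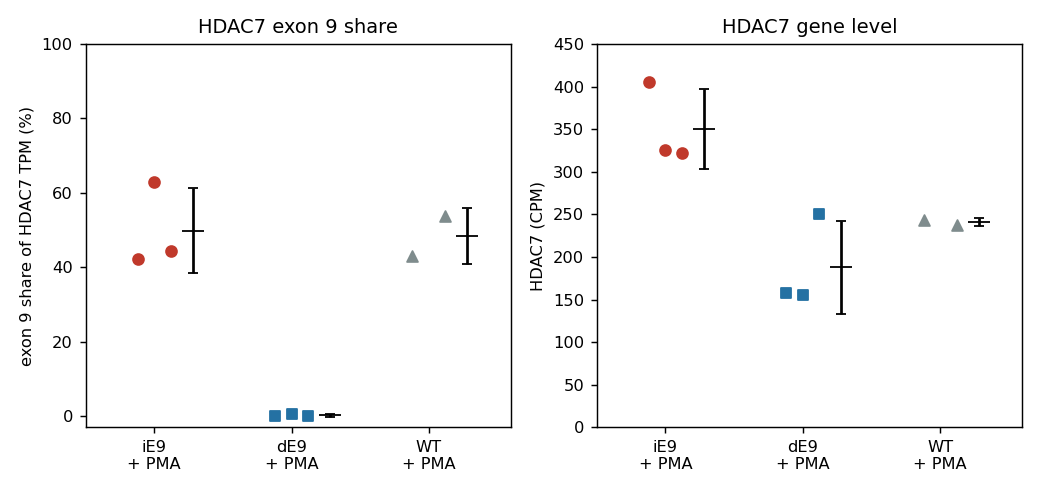
HDAC7 in PMA-treated cells, as exon 9 share in percent of the TPM of transcripts that hold or skip it (left) and gene level in CPM (right). Each point is a library (circles iE9, n = 3; squares dE9, n = 3; triangles WT, n = 2) and each bar is the mean with its SD. The dE9 share is near 0 in 3 of 3 libraries, iE9 and WT shares overlap, and gene levels of iE9 (322 to 405 CPM) lie above those of dE9 (155 to 251 CPM).

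Depth was 15405560 to 17643103 estimated counts in the iE9 libraries with PMA and 17343154 to 21828915 in the dE9 libraries, and all 16 libraries ran from 14536537 to 21888896. iE9 library 1 stood apart by its share of mitochondrially encoded counts, 12.81%, against 5.2% to 6.39% in the other 5 libraries. dE9 library 1 stood apart by the PMA response. On a scale where 0 is the mean of WT without PMA and 1 is the mean of WT with PMA, taken over 2970 genes that respond in WT, it stood at 0.79, against 1.07 and 1.12 in the other dE9 libraries and 1.01, 0.91 and 0.98 in iE9. Libraries 1 of both lines differed from their own replicates by at least 101.67 chi-square units per degree of freedom, against 8.24 between iE9 libraries 2 and 3 and 53.11 between dE9 libraries 2 and 3. The median SD of log2 CPM between replicates was 0.352 in iE9 and 0.389 in dE9, against 0.15 in WT. T cell markers differed in how even they were. CD3D, a chain of the T cell receptor complex, lay between 1750 and 2200 TPM in the 6 libraries, and LCK, its proximal kinase, between 195 and 423 TPM. CD2, an adhesion receptor of T cells, was lower and uneven at 2.13 to 24.9 TPM, with means of 17.9 TPM in iE9 and 3.51 TPM in dE9 (adjusted p = 0.113). CD7, a surface antigen of the T lineage, lay between 5.38 and 45.2 TPM, with means of 21.1 TPM in iE9 and 26 TPM in dE9 (adjusted p = 0.822).

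Of 18073 genes tested, 471 differed between iE9 and dE9 with PMA at an adjusted p under 0.05, or 2.61%, and such genes are called changed below. They divided into 199 higher in iE9 (1.1% of genes tested) and 272 lower (1.51%), and 354 of them differed at least 2-fold. The 2 groups did not overlap in 464 of the 471, against 20.8% of all genes tested. The median size of a called difference was 1.56 on the log2 scale, and the median over all genes tested was -0.02. Protein-coding genes made up 92.4% of the called genes and 76.8% of those tested. The count depended on single libraries: it was 120, 113 and 130 without iE9 library 1, 2 or 3, and 1035, 278 and 722 without dE9 library 1, 2 or 3. The gain without dE9 library 1 lay mostly on 1 side, with 685 higher and 350 lower. The count also depended on which libraries were fitted and on the tool. The model draws its spread from all 16 libraries, and WT replicates, 2 in each state, varied less than those of iE9 and dE9. Fitted alone, the 6 PMA libraries gave 47 calls among 15807 genes tested, with 45 among the 471 (9.55% of the 471). Under limma voom with group weights 127 were called, with 120 among the 471 (25.5%). Why these counts were lower was not tested.

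The 12 largest increases in iE9 that met the naming rule included receptors of the immune system. KIR3DL2, an inhibitory receptor of natural killer cells and some T cells (chromosome 19, 54850443 to 54867207), had 171, 110 and 92.6 CPM in iE9 libraries 1 to 3, against 1.24, 1.84 and 0.678 CPM in dE9 and 8.45 and 5.21 CPM in WT. The fitted difference was 97.5-fold (log2 6.61 ± 0.47, adjusted p = 1.12e-05). KIR genes are near-identical copies of each other, so reads may be shared among them. IL22RA2, a soluble decoy receptor for interleukin 22, had 13.5, 8.38 and 2.92 CPM in iE9, against 0.0919, 0 and 0.113 CPM in dE9, where it rests on 2, 0 and 2 counts. Its log2 difference was 6.82 ± 0.94 (adjusted p = 0.00233). IL23R, the interleukin 23 receptor chain, had 10.4, 5.42 and 5.74 CPM in iE9 and 0.046, 0.184 and 0.395 CPM in dE9 (log2 5.10 ± 1.04, adjusted p = 0.0241). SP140, a nuclear body protein of lymphocytes, had 21.8, 14.9 and 19.5 CPM in iE9, against 1.75, 2.44 and 1.3 CPM in dE9. That is a 10.2-fold difference with an adjusted p of 0.000874, and WT, at 1.26 and 0.823 CPM, lay beside dE9.

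ABI3, an adaptor of the actin-regulating WAVE complex, had 18.2, 21.7 and 21.7 CPM in iE9 and 0.552, 1.7 and 1.24 CPM in dE9 (17.5-fold, adjusted p = 0.000583). GNGT2, a G protein gamma subunit, overlaps ABI3 on the opposite strand and also rose (16.4-fold, adjusted p = 0.0266), and without a stated strand reads of the pair cannot be told apart. DHRS2, a short-chain dehydrogenase, had 6.98, 10.2 and 11.4 CPM in iE9 and 0.873, 0.23 and 0.508 CPM in dE9 (17.5-fold, adjusted p = 0.00301). The noncoding RNA LINC01748 was 50.9-fold higher (adjusted p = 0.00303). The sodium channel SCN2A was 14.4-fold higher (adjusted p = 0.00634), CGREF1, a secreted calcium-binding protein, 12.1-fold (adjusted p = 0.00885), C2orf40 10.3-fold (adjusted p = 0.0341), and ADAMTS4, an aggrecan-cleaving protease, 10.1-fold (adjusted p = 0.0308). In this group of 12, ABI3, CGREF1, DHRS2, IL22RA2, KIR3DL2, LINC01748, SCN2A and SP140 remained called whichever 1 of the 6 libraries was left out. The adjusted p reached 0.0899 for IL23R, 0.0934 for ADAMTS4 and 0.12 for C2orf40 without iE9 library 1, and 0.076 for GNGT2 without iE9 library 2. These 4 were also lost without each of the other iE9 libraries, IL23R and C2orf40 without dE9 library 2, and ADAMTS4 without dE9 library 3. Some sizes moved when a dE9 library was left out: the log2 difference was 4.60 for ADAMTS4 and 5.40 for GNGT2 without dE9 library 2, 4.68 for CGREF1 without dE9 library 1 and 5.88 for IL23R without dE9 library 3, against 3.33, 4.04, 3.60 and 5.10 in the full fit.

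Among the largest decreases, CPA3, the carboxypeptidase of mast cell granules (chromosome 3, 148865256 to 148897196), was at 0 counts in all 3 iE9 libraries, against 3.95, 10.7 and 5.31 CPM in dE9 and 5.31 and 4.17 CPM in WT. Set against a floor of 3 counts per library, it was at least 36.8-fold lower in iE9 (adjusted p = 0.000874). PPM1H, a protein phosphatase, had 0.576, 1.36 and 2.54 CPM in iE9, against 148, 43.8 and 64.6 CPM in dE9 and 122 and 108 CPM in WT. It was 56.2-fold lower (adjusted p = 0.000717). SLIT2, a secreted guidance ligand of ROBO receptors, had 1.22, 2.03 and 2.04 CPM in iE9, against 68.8, 21.2 and 70.1 CPM in dE9 (30.0-fold lower, adjusted p = 0.00301). PTPRD, a receptor tyrosine phosphatase, had 0.576, 0.37 and 0.221 CPM in iE9, against 13, 7.92 and 19.8 CPM in dE9 (34.7-fold lower, adjusted p = 0.000136). In each of these 4 genes both WT libraries lay far above iE9.

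CDH4, R-cadherin, had 0.768, 1.29 and 1.27 CPM in iE9 and 5.74, 46.3 and 42.3 CPM in dE9 (28-fold lower, adjusted p = 0.00963). The sodium channel SCN9A was 27.0-fold lower (adjusted p = 0.00434), MAGEL2, a regulator of ubiquitin ligases, 19.4-fold (adjusted p = 0.00932), ADCYAP1, the PACAP neuropeptide, 18.1-fold (adjusted p = 0.0136) and the zinc finger gene ZNF618 17.5-fold (adjusted p = 0.000623). FAM30A, a noncoding RNA, had 6.66, 2.65 and 15.3 CPM in iE9 and 297, 49.7 and 100 CPM in dE9 (18.1-fold lower, adjusted p = 0.00771). It overlaps the immunoglobulin heavy chain segment IGHD1-1 in the annotation, and the strand of the counting is not given. MLC1, a membrane protein of astrocytes, and TCEAL2 were led by dE9 library 1: MLC1 had 0.128, 0.246 and 0.11 CPM in iE9 and 48.2, 1.24 and 3.33 CPM in dE9 (105-fold lower, adjusted p = 0.0115). TCEAL2 had 1 count over the 3 iE9 libraries and 18, 2.63 and 0.395 CPM in dE9, a ratio of 373 with a 95% counting interval of 66.5 to 14700, which covers counting error only. Without dE9 library 1 that ratio was 81.2 (14.1 to 3260), and TCEAL2 remained called. CPA3, PPM1H, PTPRD, SCN9A, SLIT2 and ZNF618 remained called whichever 1 library was left out. The other 6 did not: without iE9 library 1 the adjusted p was 0.0681 for MLC1, 0.0581 for TCEAL2, 0.062 for CDH4, 0.0712 for ADCYAP1 and 0.0511 for FAM30A, and without iE9 library 2 it was 0.0596 for MAGEL2. MAGEL2 was also lost without iE9 library 1, and MLC1, TCEAL2, CDH4 and ADCYAP1 without either other iE9 library. Without dE9 library 1 the log2 difference was -3.76 for MLC1, -3.62 for MAGEL2, -3.35 for ADCYAP1, -3.18 for FAM30A and -5.15 for PPM1H, against -6.72, -4.28, -4.18, -4.18 and -5.81 in the full fit. It was -4.05 for SCN9A without dE9 library 2 (-4.75 in full), and without iE9 library 3 it was -5.01 for FAM30A and -6.45 for PPM1H.

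**Figure D2:**
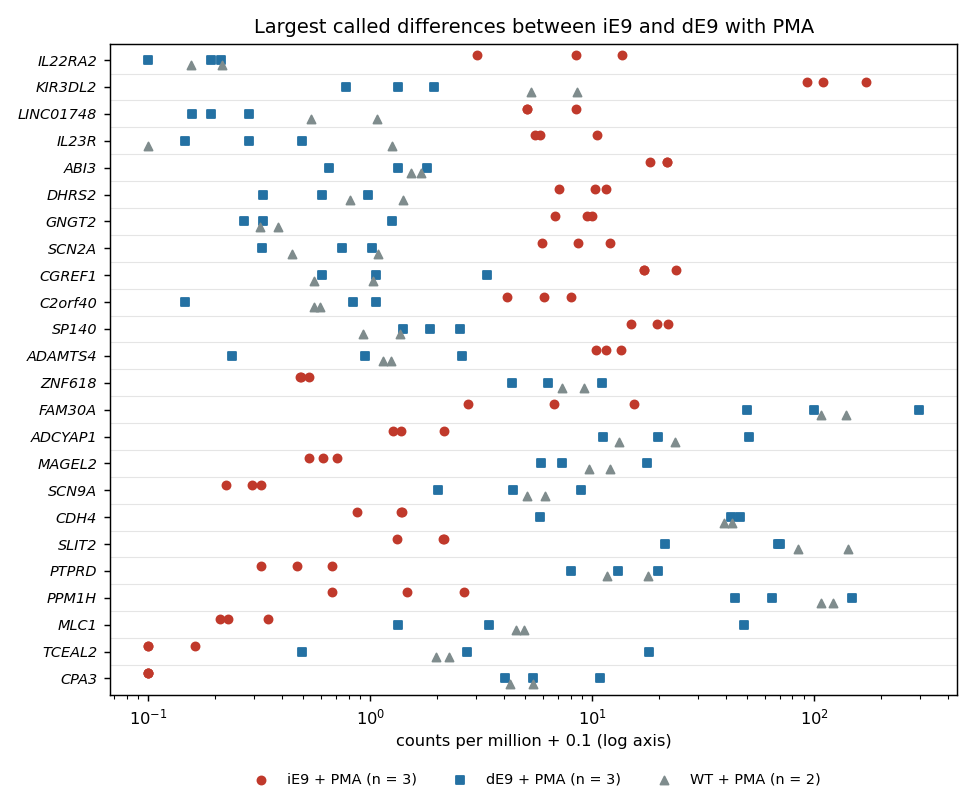
Levels of the 24 genes with the largest called differences, 12 higher and 12 lower in iE9, in PMA-treated cells, as CPM plus 0.1 on a log axis. Each point is a library (circles iE9, n = 3; squares dE9, n = 3; triangles WT, n = 2). A gene had to be free of overlap between iE9 and dE9 to be shown, and for most of these genes the WT points lie near those of dE9.

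For the gene lists below, 2.61% of all genes tested were called and the median over all genes tested was -0.02. Counts of called or positive members carry no test of a list as a group. Histone deacetylases of class I, II and IV changed in both directions. Of 11 tested, HDAC7 rose, HDAC9 and HDAC11 fell, and 8 did not pass, with a median log2 difference of -0.12. HDAC9, the class IIa relative of HDAC7, had 0.768, 0.986 and 0.497 CPM in iE9, against 14.9, 15.8 and 7.4 CPM in dE9 and 6.57 and 6.97 CPM in WT (16.9-fold lower, adjusted p = 0.0278). HDAC11, the only class IV enzyme, had 5.83, 6.1 and 5.08 CPM in iE9 and 11.9, 15.8 and 10.3 CPM in dE9 (2.23-fold lower, adjusted p = 0.02). Neither gene overlapped between the lines, as was the case for 464 of the 471 called genes and 20.8% of all genes tested. Both calls were lost without any 1 iE9 library or without dE9 library 2, with adjusted p up to 0.104 for HDAC9 and 0.0767 for HDAC11.

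Of 22 tested partners and regulators of class IIa enzymes (MEF2 factors, 14-3-3 proteins, kinases and corepressors), 1 rose and none fell, with a median of -0.08. That gene, CBX5, encodes heterochromatin protein HP1 alpha and had 300, 295 and 263 CPM in iE9 and 203, 148 and 180 CPM in dE9 (1.62-fold, adjusted p = 0.0301, lost without any 1 iE9 library or without dE9 library 2, up to 0.0907). The most abundant members, the 14-3-3 genes YWHAZ and YWHAE, had log2 differences of -0.19 (adjusted p = 0.687) and -0.39 (adjusted p = 0.371). Of 14 NR4A receptors and other MEF2 or HDAC7 target genes, CD69 and ITGAE rose, none fell, and the median was 0.08. ITGAE, the integrin chain CD103, had 42.3, 37.8 and 55.8 CPM in iE9 and 26.7, 27.5 and 20.8 CPM in dE9 (1.81-fold, adjusted p = 0.0368), and WT, at 38.2 and 36.8 CPM, lay beside the lowest iE9 library. The ITGAE call held only without dE9 library 1 and was otherwise lost, with adjusted p up to 0.127.

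Among 23 genes of the T cell receptor and its first signalling steps 1 was called, TRAC, the constant region of the receptor alpha chain, and 18 of the 23 differences were positive (median 0.28). TRAC had 661, 386 and 483 CPM in iE9, against 104, 116 and 27.4 CPM in dE9 and 192 and 231 CPM in WT. The 3 sets of libraries did not overlap, and the difference was 6.18-fold (adjusted p = 0.0285, lost without any 1 iE9 library, up to 0.0932). The most abundant members did not pass: LAT, the adaptor downstream of the receptor, had a log2 difference of 0.81 ± 0.59 (adjusted p = 0.481) and TRBC1, the beta chain constant region, of 0.18 ± 0.32 (adjusted p = 0.796). Of 25 co-receptors and costimulatory or inhibitory receptors, 20 differences were positive and 2 passed, against 2.61% of all genes tested. The median was 0.94, against -0.02 over all genes tested, and it was 0.43 without iE9 library 1. HAVCR2, the inhibitory receptor TIM-3, had 22.3, 13.9 and 12.5 CPM in iE9 and 2.53, 7.51 and 4.8 CPM in dE9 (3.27-fold, adjusted p = 0.0281). SLAMF6, a homophilic receptor of T and natural killer cells, had 130, 74.6 and 98.7 CPM in iE9 and 54.4, 51.3 and 43.4 CPM in dE9 (2.04-fold, adjusted p = 0.0324). Without iE9 library 1 both were lost, HAVCR2 at an adjusted p of 0.118 and SLAMF6 at 0.129. They were lost too without iE9 library 3, HAVCR2 without iE9 library 2, and SLAMF6 without dE9 library 2 or 3.

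Activation antigens included 2 called members of 10, both higher (median 0.43, and 0.13 without iE9 library 1). CD69, the early activation antigen, had 764, 458 and 599 CPM in iE9, against 137, 316 and 295 CPM in dE9, with WT between them at 403 and 400 CPM (2.43-fold, adjusted p = 0.0291). FAS, the death receptor that is also a p53 target, had 62.9, 43.1 and 32.8 CPM in iE9 and 14.5, 23 and 22.5 CPM in dE9 (2.31-fold, adjusted p = 0.041). CD69 was lost without iE9 library 1 (adjusted p = 0.108) or 3, and FAS without each library except dE9 library 3 (up to 0.167). The transcription factors that PMA drives directly gave no call. Among 20 AP-1, EGR and immediate early genes none passed (median 0.16), and the most abundant, IER2 and IER3, had log2 differences of 0.61 (adjusted p = 0.0805) and 0.69 (adjusted p = 0.19). Among 18 NF-kB members and feedback genes none passed (median -0.03). There NFKB1 differed by 0.02 (adjusted p = 0.984) and TNFAIP3, the A20 inhibitor, by -0.01 (adjusted p = 0.993). Without dE9 library 1, 2 members of the AP-1 and EGR group were called higher and 1 of the NF-kB group lower.

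Signalling groups downstream of diacylglycerol gave 1 call. Of 18 protein kinase C and diacylglycerol genes (median 0.18), DGKH, a diacylglycerol kinase, had 78.1, 63.6 and 58.9 CPM in iE9 and 35, 37.6 and 39.2 CPM in dE9 (1.79-fold, adjusted p = 0.0341, lost without any 1 iE9 library or without dE9 library 2, up to 0.124). The most abundant members, DGKA and UNC13D, had log2 differences of 0.40 (adjusted p = 0.436) and -0.10 (adjusted p = 0.856). None of 16 ERK feedback regulators passed (median 0.16), with DUSP6, an ERK phosphatase, at 0.50 (adjusted p = 0.329) and RASA2, a RAS GTPase activator, at 0.35 (adjusted p = 0.385). None of 13 cytokines and chemokines passed (median 0.55), with IL16 at 0.71 (adjusted p = 0.332) and TGFB1 at 0.55 (adjusted p = 0.246). Without dE9 library 1, 2 cytokine genes were called higher (median 0.48), and without dE9 library 3 the median was 0.29 with none called. Of 28 cytokine receptor and JAK-STAT genes, JAK3, the kinase of the common gamma chain, was the 1 member to fall, with 3.78, 2.09 and 2.65 CPM in iE9 and 13.6, 11.8 and 8.98 CPM in dE9 (4.04-fold lower, adjusted p = 0.00963). It was lost without iE9 library 2 (adjusted p = 0.0625) or 3. STAT3, an abundant transcription factor of this group, had a log2 difference of -0.43 (adjusted p = 0.249). Among 28 adhesion, homing and chemokine receptors, ITGAE and CCR1 rose. The median was 0.46, and it was 0.11 without iE9 library 1, 0.25 without dE9 library 3 and 0.92 without dE9 library 2. CCR1, a chemokine receptor, had 67.5, 37.3 and 26.2 CPM in iE9 and 5.1, 7.69 and 5.37 CPM in dE9 (7.2-fold, adjusted p = 0.0485), and its call was lost whichever of the 6 libraries was left out (up to 0.183). None of 20 actin and semaphorin genes passed (median -0.10), with CORO1A at -0.23 (adjusted p = 0.655) and MYO1G at -0.58 (adjusted p = 0.309).

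Thymocyte genes changed in both directions, with 2 of 29 higher, 2 lower and a median of 0. CD1B and CD1C, lipid-presenting molecules of cortical thymocytes, were higher in iE9. CD1B had 65, 44.5 and 43.8 CPM in iE9 and 8.82, 14.5 and 19.3 CPM in dE9, with WT at 30.3 and 25.6 CPM between them (3.60-fold, adjusted p = 0.0167). CD1C had 326, 175 and 167 CPM in iE9 and 5.56, 30.3 and 69.4 CPM in dE9 (6.35-fold, adjusted p = 0.0308), and reads may be shared among CD1 family members. TCF7, the T lineage factor TCF1, had 11.5, 15 and 12.1 CPM in iE9, against 77.4, 42.4 and 25.7 CPM in dE9 (3.76-fold lower, adjusted p = 0.0333). RAG1, the recombinase that rearranges receptor genes, had 2.69, 1.91 and 1.88 CPM in iE9, against 7.68, 5.71 and 6.21 CPM in dE9 (3.03-fold lower, adjusted p = 0.0324). None of the 4 overlapped between the lines, as was the case for 464 of the 471 called genes and 20.8% of all genes tested. Without iE9 library 1 the adjusted p was 0.0699 for CD1B, 0.109 for CD1C and 0.126 for TCF7. RAG1 reached 0.112 without iE9 library 2. CD1C, TCF7 and RAG1 were lost without each iE9 library and without dE9 library 2, and TCF7 also without dE9 library 1. Without dE9 library 3 the CD1C log2 difference was 3.63, against 2.67 in the full fit.

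Factors of the TAL1 complex and related leukemic factors had 9 of 13 differences not above 0, with 2 called lower and a median of -0.98 (-0.51 without dE9 library 1). HHEX, a homeobox factor, had 3.07, 8.01 and 8.22 CPM in iE9, against 27.7, 62.6 and 35.2 CPM in dE9 and 67 and 41 CPM in WT (6.49-fold lower, adjusted p = 0.0196). LYL1, a helix-loop-helix relative of TAL1, had 0.384, 0.308 and 0.717 CPM in iE9 and 56.1, 15.4 and 0.565 CPM in dE9 (49.9-fold lower, adjusted p = 0.0219). The LYL1 groups overlap, since dE9 library 3 lay within the iE9 range. Without iE9 library 1 the adjusted p was 0.0786 for HHEX and 0.0934 for LYL1. Both were lost without each iE9 library, and HHEX also without dE9 library 2, and without dE9 library 1 the LYL1 log2 difference was -4.06, against -5.64 in full. In the NOTCH pathway 1 of 17 was called (median 0): DLL3, a ligand, had 1.41, 2.4 and 2.76 CPM in iE9 and 13.4, 8.8 and 6.89 CPM in dE9 (4.41-fold lower, adjusted p = 0.0252, lost without any 1 iE9 library, up to 0.102). The receptor NOTCH1 had a log2 difference of 0.83 (adjusted p = 0.104) and its coactivator MAML1 of 0.25 (adjusted p = 0.369).

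**Figure D3:**
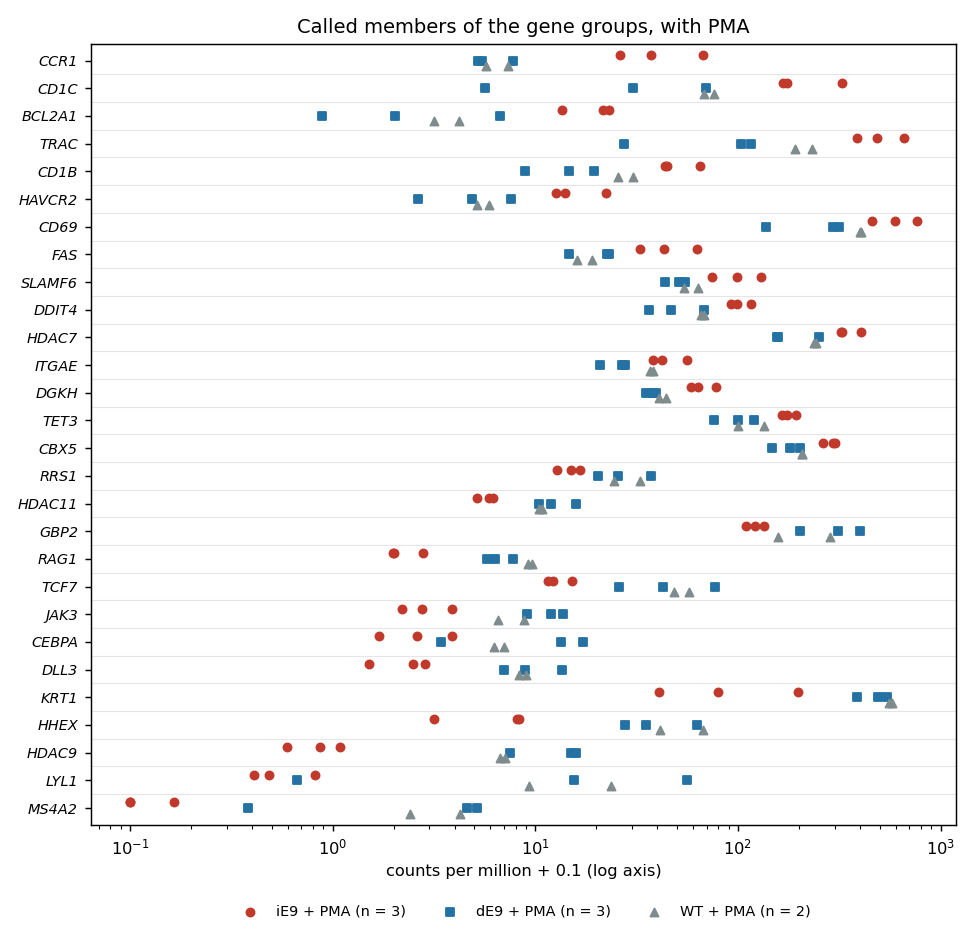
Levels of 28 called members of the gene groups that are not among the largest differences, in PMA-treated cells, as CPM plus 0.1 on a log axis, ordered from the highest to the lowest difference. Each point is a library (circles iE9, n = 3; squares dE9, n = 3; triangles WT, n = 2). CEBPA and LYL1 are the genes shown whose iE9 and dE9 points overlap. For some genes, CD69, CD1B and TRAC among them, the WT points lie between the lines.

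Replication and cell cycle genes differed widely among the dE9 libraries. All 29 differences between iE9 and dE9 were positive, with a median of 0.85 and a range of 0.27 to 1.46, and none passed the test. The mean log2 CPM of the 29 genes was 5.92, 6.48 and 6.21 in iE9 libraries 1 to 3, against 6.51, 4.48 and 3.59 in dE9 and 5.58 and 5.55 in WT. dE9 library 1 was above both WT libraries in 29 of the 29 genes, and dE9 libraries 2 and 3 were each below both in 29 of 29. iE9 library 1 was above both WT libraries in 23 genes and below both in 4, and iE9 libraries 2 and 3 were above both in 29. Only 1 of the 29 genes, MKI67, the Ki-67 proliferation antigen, did not overlap between iE9 and dE9 (20.8% of all genes tested did not). It had 419, 434 and 328 CPM in iE9, against 326, 73.7 and 28.6 CPM in dE9 and 166 and 174 CPM in WT (log2 1.46 ± 0.57, adjusted p = 0.183). MCM7, a subunit of the replicative helicase, had 256, 315 and 276 CPM in iE9 and 298, 170 and 167 CPM in dE9 (log2 0.41 ± 0.21, adjusted p = 0.296). In the fit without dE9 library 1, MKI67 was called at 2.94 (adjusted p = 0.000171) and MCM7 at 0.75 (adjusted p = 0.0179). Counting the whole group in that fit, which was decided after the data were seen, gave 29 of 29 genes called higher in iE9 with a median of 2.32. Of all 17912 genes tested in that fit, 685 were called higher and 350 lower. Without iE9 library 1 none was called (median 0.94). The same dE9 library had the lowest PMA position, 0.79, and its part in the result was not tested. That position is not a separate measure, since it takes in cell cycle genes that fell with PMA in WT. MKI67 (log2 -2.03 in WT) and MCM7 (-1.47) are among them. Without PMA the 29 genes had a median of -0.34 and none was called.

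**Figure D4:**
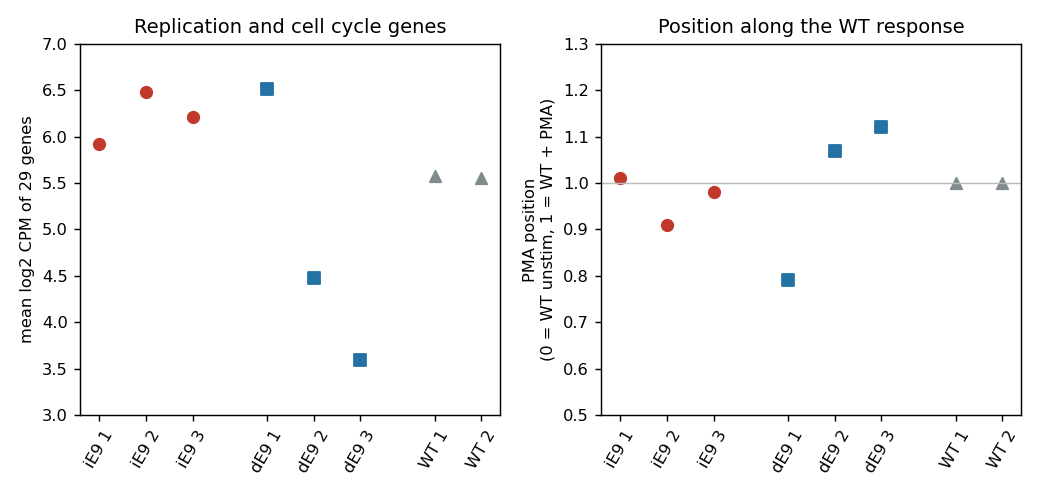
Per-library summaries in PMA-treated cells: the mean log2 CPM of 29 replication and cell cycle genes (left) and the position along the WT response to PMA over 2970 genes (right, where 0 is WT without PMA and 1 is WT with PMA). Each point is 1 library (circles iE9, squares dE9, triangles WT). dE9 library 1 has the highest cell cycle level, 6.51, and the lowest PMA position, 0.79, and dE9 libraries 2 and 3 have the lowest cell cycle levels, 4.48 and 3.59. The panels share genes, MKI67 and MCM7 among them.

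Of 13 cyclin-dependent kinase inhibitors, D cyclins and their partners none passed (median 0.16). CDK6, a kinase that D cyclins activate, had 504, 657 and 846 CPM in iE9 and 987, 1100 and 1410 CPM in dE9 (log2 -0.80, adjusted p = 0.0718). Its libraries did not overlap between the lines, as was the case for 20.8% of all genes tested. RB1 differed by -0.09 (adjusted p = 0.857). Without dE9 library 1, 2 members of that group were called higher and 1 lower (median 0.43), and without iE9 library 2 the median was -0.12. In ribosome biogenesis 3 of 18 differences were above 0, the median was -0.34 and 1 gene was called. RRS1, a ribosome assembly factor, had 12.7, 14.9 and 16.6 CPM in iE9 and 25.6, 37.3 and 20.4 CPM in dE9 (1.88-fold lower, adjusted p = 0.0341, lost without any 1 iE9 library or without dE9 library 2, up to 0.126). The nucleolar proteins NPM1 and NCL, the most abundant of these, had log2 differences of -0.64 (adjusted p = 0.13) and -0.37 (adjusted p = 0.297). In cholesterol and fatty acid synthesis 17 of 20 differences were positive and 1 gene was called higher, with a median of 0.31 that was 0.65 without dE9 library 2 and 0.15 without dE9 library 3. FDFT1, the squalene synthase, differed by -0.04 (adjusted p = 0.955). None of 23 glucose transport and glycolysis genes passed (median -0.04), with GAPDH at -0.33 (adjusted p = 0.584) and PKM at 0.17 (adjusted p = 0.664).

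Among stress and survival genes, DDIT4, an inhibitor of mTORC1 that responds to stress, was the 1 called member of 21 genes of the ATF4 and unfolded protein responses (median 0.15). It had 92.2, 116 and 98.6 CPM in iE9 and 36.5, 68.1 and 46.7 CPM in dE9 (2.02-fold, adjusted p = 0.0427, lost without any library except dE9 library 2, up to 0.135). ATF4 itself differed by -0.08 (adjusted p = 0.893) and SLC7A5, an amino acid transporter, by 0.20 (adjusted p = 0.751). Of 19 apoptosis regulators 1 rose (median 0.14): BCL2A1, an antiapoptotic BCL2 relative, had 13.5, 21.5 and 23 CPM in iE9 and 1.93, 6.59 and 0.791 CPM in dE9 (6.19-fold, adjusted p = 0.044, lost without any library except dE9 library 2, up to 0.122, with a log2 difference of 3.82 without that library and 2.63 in full). MCL1 and BCL2L1, the most abundant of these, differed by -0.10 (adjusted p = 0.816) and 0.22 (adjusted p = 0.705). FAS was the 1 called member of 16 p53 targets (median 0.23), where TNFRSF10B differed by 0.52 (adjusted p = 0.318) and ZMAT3 by 0.06 (adjusted p = 0.892). In the interferon response 1 of 29 fell (median 0). GBP2, an interferon-induced GTPase, had 121, 109 and 135 CPM in iE9, against 313, 400 and 203 CPM in dE9 and 284 and 157 CPM in WT (2.51-fold lower, adjusted p = 0.0458, lost without any 1 iE9 library or without dE9 library 2, up to 0.148). None of 15 antigen presentation genes passed (median 0.08), with HLA-B at 0.08 (adjusted p = 0.948).

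Among genes of chromatin and RNA processing 1 was called besides the deacetylases and CBX5. Of 31 enzymes that modify histones or DNA 25 differences were positive (median 0.23) and 1 passed, or 4 without dE9 library 1. TET3, which acts on DNA by oxidising methylated cytosine, had 194, 174 and 165 CPM in iE9 and 76.4, 100 and 120 CPM in dE9 (1.80-fold, adjusted p = 0.035, lost without any library except dE9 library 3, up to 0.11). KMT2D, a histone methyltransferase, and DNMT3A, a DNA methyltransferase, are the most abundant of these and differed by 0.40 (adjusted p = 0.352) and 0.19 (adjusted p = 0.615). Of 30 SR proteins, hnRNPs and other splicing regulators none passed (median -0.04), with HNRNPA2B1 at 0.03 (adjusted p = 0.939) and HNRNPA1 at -0.41 (adjusted p = 0.285). None of 9 replication-dependent histone genes passed (median -0.48), with HIST1H2AC at -0.14 (adjusted p = 0.866) and HIST1H2BK at -0.95 (adjusted p = 0.414), and polyA selection recovers such transcripts poorly. The histone gene median was 0.32 without dE9 library 1 and -0.85 without dE9 library 2. None of the 13 mitochondrially encoded genes passed. Their median was 0.35 and was -0.15 without iE9 library 1, and MT-CO1 had 21300, 8830 and 8540 CPM in iE9 and 12200, 10800 and 9870 CPM in dE9 (log2 0.24, adjusted p = 0.755), with MT-ATP6 at 0.26 (adjusted p = 0.687).

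Marker lists of other cell types were measured to describe the genes outside the T lineage. Few of them were at 0 in all 6 libraries: 1 of 15 natural killer markers (TYROBP), 1 of 10 B cell markers (FCRLA), 1 of 15 myeloid markers (ELANE), 1 of 11 mast cell markers (FCER1A), 1 of 15 epithelial markers (EPCAM), 1 of 11 fibroblast markers (LUM) and 7 of 13 erythroid and megakaryocyte markers, HBB among them. The other listed markers had a level above 0 in at least 1 library. The summed mast cell markers ran from 17.2 to 47.8 TPM in iE9 and from 42 to 455 TPM in dE9, and 2 of 7 tested fell, with a median of -2.64 that does not change when CPA3 is set at its bound. That median was -1.68 without dE9 library 1, and 1 mast cell marker was called without any 1 iE9 library and 3 without dE9 library 3. MS4A2, the beta chain of the IgE receptor, had 1 count over the 3 iE9 libraries, against 5.06, 4.51 and 0.282 CPM in dE9 and 4.17 and 2.31 CPM in WT, a ratio of 174 with a 95% counting interval of 30.9 to 6910 (adjusted p = 0.0199, lost without any 1 iE9 library, up to 0.079). Summed epithelial and keratin markers ran from 57.8 to 283 TPM in iE9 and from 437 to 628 TPM in dE9, and 1 of 8 fell. The median was 0.18, with 1.08 over 7 genes without dE9 library 1 and -0.19 without dE9 library 2. KRT1, an epidermal keratin, had 40.8, 79.7 and 198 CPM in iE9, against 542, 387 and 489 CPM in dE9 and 574 and 554 CPM in WT (4.45-fold lower, adjusted p = 0.026, lost without iE9 library 1 or 2, up to 0.101, with a log2 difference of -2.97 without iE9 library 3 and -2.16 in full), while KRT3 differed by -0.54 (adjusted p = 0.592). Keratins share similar sequence, and reads may be shared among them.

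Of 5 myeloid markers tested 1 fell (median -0.46): CEBPA, a myeloid transcription factor, had 2.5, 3.76 and 1.6 CPM in iE9 and 17.1, 13.3 and 3.33 CPM in dE9 (4.29-fold lower, adjusted p = 0.0341, lost without any library except dE9 library 3, up to 0.119), and the groups overlap. The most abundant, CEBPB and AIF1, differed by -0.34 (adjusted p = 0.337) and -0.46 (adjusted p = 0.795), and the summed list ran from 47.2 to 86 TPM in iE9 and from 63 to 148 TPM in dE9. B cell markers summed to 306 to 542 TPM in iE9 and 15.8 to 218 TPM in dE9 with none of 4 called. The median was -0.48, with -1.88 without iE9 library 1 and 0.16 over 3 genes without dE9 library 1, and 1 gene was called higher without dE9 library 2. CD79A, a signalling chain of the B cell receptor, had 402, 206 and 226 CPM in iE9 and 8.41, 154 and 31.2 CPM in dE9 (log2 2.11 ± 0.80, adjusted p = 0.173), and BLK differed by -1.85 (adjusted p = 0.379). None of 10 natural killer and cytotoxic markers was called (median 0.48, with 1.06 without dE9 library 1 and 0.12 without dE9 library 3), and the list summed to 313 to 704 TPM in iE9 and 250 to 1190 TPM in dE9. None of 3 erythroid markers tested was called (median -0.91, 16.4 to 87.7 TPM in iE9, 4.16 to 76.8 TPM in dE9), nor any of 3 fibroblast and endothelial markers (median -0.27, 3.41 to 6.94 TPM in iE9, 3.56 to 8.32 TPM in dE9). In these lists GZMA differed by -0.65 (adjusted p = 0.661) and NCAM1 by -0.57 (adjusted p = 0.338), HBA1 by -0.91 (adjusted p = 0.665) and its near-identical copy HBA2 by 0.57 (adjusted p = 0.824), and COL1A1 by -0.27 (adjusted p = 0.79) and COL3A1 by -1.26 (adjusted p = 0.497). The part of other cell types in the differences was not tested.

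Most called genes had a WT level nearer to dE9. In 431 of the 471 (91.5%) the mean of PMA-treated WT lay nearer to dE9 than to iE9, made up of 170 of the 199 higher and 261 of the 272 lower genes, while 69% of all genes tested lay nearer to dE9. A WT increase of more than 2-fold with PMA was seen in 25.6% of the higher and 22.8% of the lower genes, against 17.7% of all genes tested. A WT decrease of that size was seen in 19.6% of the higher and 17.6% of the lower genes, against 13.5% of all genes tested. These shares are descriptions, since WT has 2 libraries.

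Part of the difference between the lines was present without PMA. In unstimulated cells 311 genes were called between iE9 and dE9 (1.72% of genes tested), 173 higher (0.957%) and 138 lower (0.764%). There were 109 genes called in both states, or 23.1% of the calls with PMA and 35% of those without, and all 109 had the same direction, 46 higher and 63 lower. Of the 471 genes called with PMA, 414 (87.9%) had a difference of the same sign without PMA, against 66.7% of all genes tested. iE9 library 1 stood apart in mitochondrial share without PMA too, at 9.17%, against 4.14% and 3.85% in iE9 libraries 2 and 3. On the PMA scale the unstimulated iE9 libraries 1 to 3 stood at 0.3, 0.2 and 0.24, against 0.05, 0.09 and 0.01 in dE9. The part of either in the shared signs was not tested. The labels do not say whether libraries of the same number share a culture. Libraries of the 2 states are separate, but they come from the same lines. KIR3DL2 was high in both, averaging 125 ± 41.3 CPM in iE9 and 1.25 ± 0.582 CPM in dE9 with PMA, and 114 ± 55.6 CPM in iE9 and 1.43 ± 0.396 CPM in dE9 without it (SD, n = 3 each). TRAC averaged 510 ± 140 CPM in iE9 and 82.5 ± 48.0 CPM in dE9 with PMA, and 123 ± 36.5 CPM in iE9 and 7.09 ± 6.9 CPM in dE9 without it (SD, n = 3 each). HDAC7 itself differed by 0.90 on the log2 scale with PMA and by 1.66 without it (adjusted p = 0.00224).

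Other genes, picked after their values were seen, differed by little without PMA. CPA3 had a mean of 0 CPM in iE9 and 6.65 ± 3.56 CPM in dE9 with PMA, but 0.106 ± 0.105 CPM in iE9 and 0.146 ± 0.0363 CPM in dE9 without it (SD, n = 3 each). SLIT2 averaged 1.76 ± 0.474 CPM in iE9 and 53.4 ± 27.9 CPM in dE9 with PMA, and 0.95 ± 0.773 CPM in iE9 and 1.51 ± 1.58 CPM in dE9 without it. KRT1 averaged 106 ± 81.8 CPM in iE9 and 473 ± 78.7 CPM in dE9 with PMA, and 17 ± 5.99 CPM in iE9 and 11 ± 5.22 CPM in dE9 without it. Means of SLIT2 and KRT1 in WT were 113 and 564 CPM with PMA and 1.89 and 6.51 CPM without, so both genes were high after PMA in WT and dE9 and much lower in iE9. The test of whether the line difference itself changed with PMA called 0 genes by edgeR, with 1239 at an unadjusted p under 0.05, 0 by limma voom and 136 by DESeq2. Its unadjusted p was 3.77e-05 for CPA3, 0.000773 for SLIT2, 0.000608 for KRT1, 0.00249 for GBP2 and 0.00452 for LYL1, and the adjusted p was 0.234 to 0.429 for these 5. In that edgeR test the unadjusted p was 0.00038 for DDIT4, 0.00189 for PPM1H and 0.00196 for CD1B (adjusted p 0.25 to 0.301). The log2 difference of DDIT4 was smaller with PMA (1.02) than without (2.61). That of CD1B was 1.85 with PMA and 0.01 without. Without dE9 library 1 that test called 461 genes, 400 higher and 61 lower, and without dE9 library 3 it called 15.

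**Figure D5:**
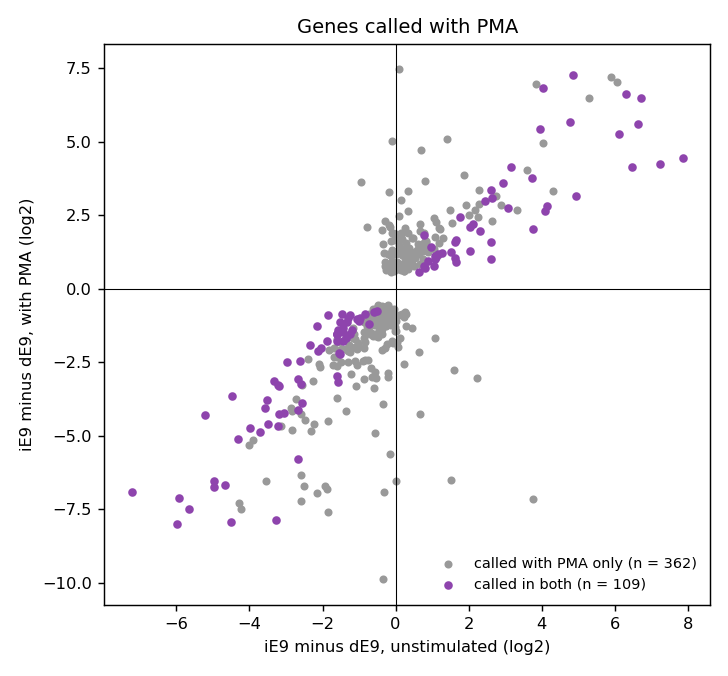
The log2 difference iE9 minus dE9 with PMA (vertical axis) against the same difference in unstimulated cells (horizontal axis) for the 471 genes called with PMA, each point a gene. Purple points are the 109 genes called in both states, all in the upper right or lower left of the plot, and grey points are the 362 called with PMA only. Grey points near the vertical zero line are genes with little difference without PMA. CPA3 is lowest among them at its fitted value of -9.89, which rests on 0 counts in all 3 iE9 libraries. Against the floor it was at least 36.8-fold lower.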

How the data were processed

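Polyadenylated RNA was sequenced in 16 libraries, and the submitters' processing notes name Salmon, DESeq2 and the hg38 build, without versions or roles. The authors deposited estimated counts, TPM and effective lengths per transcript, per the file headers, and a gene-level TPM table used only as a check. All 205870 transcripts matched GENCODE release 29, in 58295 genes. For each gene the estimated counts of its transcripts were added up, and the sums were rounded.

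Genes were tested with edgeR 4.0.16 (limma 3.58.1, DESeq2 1.42.0, R 4.3.3) with its quasi-likelihood test (two-sided, TMM scaling, no robust fit). One model covered all 16 libraries and gave each of 6 groups a coefficient. Of 33304 genes that had any count, 18073 passed filterByExpr, and the common biological coefficient of variation was 31.8%. A gene was called at an adjusted p (Benjamini-Hochberg, per comparison) below 0.05. Adjusted p-values of genes are edgeR's except where DESeq2 or voom is mentioned. Levels are TMM-scaled CPM, given to 3 digits. Log2 differences are iE9 minus dE9 with their standard error, and folds are their antilogs. The interaction tested the line difference with PMA minus that without. Exon 9 shares were compared by an exact permutation test in scipy. The fits were tested on simulated counts with known changes. Those counts had the same spread in every group and no outlying library, unlike these data. No 2 replicates agreed within sampling noise (lowest chi-square per degree of freedom 7.55). Replicate numbers were not treated as pairs in the main model, and the labels do not say whether they pair the lines.

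Named genes were HDAC7, the 12 per direction with the largest called difference, no overlap between lines, a mean of 5 CPM or more on the higher side and no clone-based or pseudogene symbol, and, from each of 38 gene lists, up to 4 called members or, with fewer than 2 called, the 2 most abundant. A few genes that this rule would name are not reported here. Single called members of lists were named in addition, after their values were seen. The comparison, the lists and the rule were chosen with earlier results of these data known. Lists are described by counts and medians, with no set test. Alternatives varied the scaling, the filter, the tool, a replicate block, length offsets and the libraries. A floor of 3 counts per library was used where a group had 0 counts, and intervals at 95% cover counting error only.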

Additional observations from a re-analysis of the deposited data

How the results depend on the processing

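With PMA the 471 called genes became 481 with RLE scaling, 507 at a minimum of 1 CPM in 3 libraries, 475 with robust estimation and 508 with the replicate block, of which 399 were shared with the 471. The count was 1801 without a filter on low counts, 1306 with DESeq2, 127 with limma voom, 304 with effective length offsets, 47 when only the 6 PMA libraries were fitted, and 776 without library 1 of both lines. Leaving out 1 library gave 113 to 1035. The interaction count of 0 became 480 without a filter, 136 with DESeq2 and 509 without library 1 of both lines, and 0 to 461 when 1 library was left out. The 311 calls without PMA became 1319 without a filter, 867 with DESeq2, 180 with length offsets, and 110 to 276 with 1 library left out. The causes were not tested. Deviations of iE9 and dE9 libraries of the same number with PMA were nearly uncorrelated (0.03, 0.03 and -0.03). The labels do not say whether the numbers pair the lines, and such correlations cannot settle it.

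None of the 52 called genes that are named turned sign in any setting, and 14 of them remained called whichever 1 PMA library was left out. Under DESeq2, RLE scaling, no filter or the 1 CPM minimum all 52 remained, with robust estimation 51, with the block 50, with length offsets 40, with voom 22 and with the 6 libraries alone 19 of 50. The exon 9 share difference ran from 43.06 to 53.41 points with 1 library left out, was 58.06 with protein-coding transcripts only and 53 with estimated counts. Leaving out 1 library changes the degrees of freedom as well as the data.

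Of the medians of the 38 gene lists, 13 turned sign when 1 library was left out, and list counts and medians under left-out libraries were added after the data were seen.

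Among 54 named genes that were not called, 26 turned sign in some setting, and these log2 differences are to be read as near 0 or undetermined. Under voom TNFAIP3 was 0.23, COL3A1 0.54 and AIF1 0.23. Under the block TNFAIP3 was 0.08. With length offsets FDFT1 was 0.01, HNRNPA2B1 -0.02 and RB1 0.01. Without library 1 of both lines FDFT1 was 0.08, NFKB1 -0.13, GAPDH 0.26, DNMT3A -0.08, ATF4 0.31, GZMA 0.08, ZMAT3 -0.05, HIST1H2AC 0.34, KRT3 0.34, HBA2 -0.03, HIST1H2BK 0.46, MT-CO1 -0.25 and HLA-B -0.43. With 1 library left out the ranges were -0.99 to 0.07 for AIF1, -0.19 to 0.14 for ATF4, -0.68 to 0.49 for COL1A1, -1.82 to 1.60 for COL3A1, -0.40 to 0.06 for CORO1A, -0.20 to 0.19 for FDFT1, -0.52 to 0.04 for GAPDH, -1.26 to 0.69 for GZMA, -0.46 to 1 for HBA2, -0.34 to 0.18 for HIST1H2AC, -1.32 to 0.20 for HIST1H2BK and -0.38 to 0.52 for HLA-B. They were -0.06 to 0.17 for HNRNPA2B1, -1.22 to 0.08 for KRT3, -0.30 to 0.08 for MCL1, -0.15 to 0.44 for MT-ATP6, -0.33 to 0.46 for MT-CO1, -0.37 to 0.36 for NFKB1, -0.27 to 0.13 for RB1, -0.05 to 0.62 for SLC7A5, -0.43 to 0.37 for TNFAIP3, -0.10 to 0.54 for TRBC1, -0.25 to 0.04 for UNC13D, -0.36 to 0.04 for YWHAZ and -0.11 to 0.27 for ZMAT3.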

Other observations

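Some called genes outside the gene lists share a role with them. They were picked from the calls after their values were seen, so they carry no test as groups. Whether the calls of genes named in this section hold with 1 library left out was not examined gene by gene. Mitotic and replication genes were called higher in iE9 with PMA even though the 29 listed ones were not. TPX2, a spindle assembly factor, had 162, 290 and 217 CPM in iE9 and 110, 66.7 and 39.4 CPM in dE9 (log2 1.63 ± 0.33, adjusted p = 0.0219 by edgeR). SPAG5, a spindle protein, had 213, 283 and 256 CPM in iE9 and 140, 66.1 and 101 CPM in dE9 (1.29 ± 0.21, adjusted p = 0.0068). CENPA, the centromeric histone, differed by 1.52, HASPIN, a mitotic histone kinase that lies within ITGAE in the annotation, by 2.09, TIMELESS, a replication fork protein, by 1.32, GINS4, a helicase subunit, by 1.29 and SMC2, a condensin subunit, by 0.95. In each of these 7 genes dE9 library 1 was the highest of the dE9 libraries, and without PMA the differences lay between -0.33 and 0.06, with none called.

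The variable segment TRAV8-4 of the T cell receptor alpha chain had 173, 94.5 and 120 CPM in iE9 and 19.1, 29.7 and 6.61 CPM in dE9 (log2 2.80 ± 0.52, adjusted p = 0.0138), beside the constant region TRAC described above. TRAV17, another segment, differed by 2.30 (adjusted p = 0.0422). The receptor chain IL12RB2, which pairs in interleukin 12 signalling, had 6.08, 3.2 and 3.26 CPM in iE9 and 0.276, 0.322 and 0.395 CPM in dE9 (3.64 ± 0.69, adjusted p = 0.0159), and IL17RA differed by 1.38 (adjusted p = 0.0484). In the other direction, the receptor tyrosine kinases FGFR1 and EPHA3 were lower. FGFR1 had 12.2, 10.6 and 10.1 CPM in iE9, against 221, 29.9 and 80 CPM in dE9 and 193 and 176 CPM in WT (-3.33 ± 0.59, adjusted p = 0.0103). EPHA3 differed by -2.47 (adjusted p = 0.00932).

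Genes of ribosome assembly and translation were among the lower calls with small and even differences. NAT10, an RNA acetyltransferase of the nucleolus, had 70.4, 94.7 and 90.5 CPM in iE9, against 128, 127 and 131 CPM in dE9 and 120 and 125 CPM in WT (-0.60 ± 0.14, adjusted p = 0.0367). EIF3G, an initiation factor subunit, had 139, 134 and 132 CPM in iE9 and 248, 259 and 227 CPM in dE9 (-0.86 ± 0.13, adjusted p = 0.00381), and was also lower without PMA (-0.85, adjusted p = 0.00402). NOP16, NOB1, LTV1, IMP4, EIF3M and RPL7A differed by -0.97 to -0.61. Over 272 runs of 40 neighbouring genes with a mean of 5 CPM or more, the median difference with PMA lay between -0.23 and 0.29. The signs were uneven among chromosomes picked after the values were seen: all 10 runs were above 0 on chromosome 10 (0.03 to 0.22) and all 10 on chromosome 15 (0.09 to 0.25), as were 12 of 14 on chromosome 12, while 17 of 19 were below 0 on chromosome 19 (-0.23 to 0.08) and 12 of 16 on chromosome 11. No test of these shifts was made.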
